A study of Mus musculus with 12 samples.

Results

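The cytosolic ribosome of the mouse liver was followed through the transcripts of its protein components. The 84 genes were the protein-coding rows of the deposited table whose symbols follow the standard names of the large-subunit proteins (Rpl), the small-subunit proteins (Rps), the stalk proteins (Rplp0 to Rplp2) or Rpsa, without the Rps6k kinases, out of 35275 rows. Another 4 rows with such names were annotated as pseudogenes and left out. The genes comprised 43 of the large subunit, 31 of the small subunit including Rpsa, 3 of the stalk and 7 paralogs (Rpl3l, Rpl7l1, Rpl10l, Rpl22l1, Rpl39l, Rps27l and Rps4l). No measured value entered the choice. RNA sequencing had been done on 12 mouse samples given as liver, 3 biological replicates in each of 4 groups. They came from mice labelled wild type (WT) or Hnf4a liver knockout (KO), on vivarium chow or on a high fat diet (HFD). Hnf4a encodes a nuclear receptor of hepatocytes, and the study asked how diet and loss of this receptor alter expression in the liver. The sources used here do not give the Cre driver, the duration of feeding, the age or the sex of the mice.

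Each ribosome is assembled from ribosomal RNA and a fixed set of proteins, nearly all present in a single copy, so the cell makes these proteins in matched amounts. Their mRNAs are short and abundant, and most begin with a run of pyrimidines (C and T), the 5′ terminal oligopyrimidine or TOP sequence, through which the mTOR kinase and the RNA-binding protein Larp1 control their translation. In the liver, ribosome production follows nutrient supply and growth. Because control acts largely on translation, an mRNA level is not a measure of ribosome output.

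The sequences below show start sites with a pyrimidine run nearby, beside those of members called or nearly silent in these data. A TOP sequence begins at the transcript start, so a run elsewhere in the stretch need not be one. RefSeq windows on GRCm38.p6, which run from 250 bases before to 50 bases after a start, were found for 63 of the 84 genes (75 windows). Shown are 30 bases before and 20 bases from the start on. They belong to the 7 genes with CTCTTTC in that stretch (Rpl18, Rpl28, Rpl35, Rpl35a, Rpl5, Rps15a and Rps26), to Rps27, Rps21 and Rpl41, which with Rps15a are the 4 genes described further on for the diet comparison, and to 3 paralogs nearly without reads in most libraries. All are written 5′ to 3′ along the gene, and the capitals mark the longest unbroken run of C and T.
Rpl35: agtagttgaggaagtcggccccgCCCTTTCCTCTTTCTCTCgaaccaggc
Rpl35a: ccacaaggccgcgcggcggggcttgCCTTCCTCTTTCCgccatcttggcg
Rpl28: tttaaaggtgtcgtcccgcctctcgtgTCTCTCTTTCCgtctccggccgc
Rpl18: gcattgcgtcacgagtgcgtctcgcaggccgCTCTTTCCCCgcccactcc
Rps15a: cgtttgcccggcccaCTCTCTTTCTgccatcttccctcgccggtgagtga
Rpl5: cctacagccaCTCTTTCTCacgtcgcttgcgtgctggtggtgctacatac
Rps26: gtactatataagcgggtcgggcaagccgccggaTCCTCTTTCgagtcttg
Rps27: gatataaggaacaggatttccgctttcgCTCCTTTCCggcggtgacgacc
Rps21: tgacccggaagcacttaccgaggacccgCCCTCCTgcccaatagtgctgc
Rpl41: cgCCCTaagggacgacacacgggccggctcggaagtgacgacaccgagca
Rpl39l: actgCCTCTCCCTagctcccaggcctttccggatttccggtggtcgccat
Rpl3l: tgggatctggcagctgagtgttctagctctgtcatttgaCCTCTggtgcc
Rpl10l: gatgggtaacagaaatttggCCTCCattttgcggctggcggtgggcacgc
On GRCm38.p6 these stretches lie at chr2:39005112-39005161 (Rpl35, minus strand), chr16:33056452-33056501 (Rpl35a, plus), chr7:4792935-4792984 (Rpl28, plus), chr7:45718041-45718090 (Rpl18, plus) and chr7:118116128-118116177 (Rps15a, minus). The others lie at chr5:107900498-107900547 (Rpl5, plus), chr10:128626487-128626536 (Rps26, minus), chr3:90213629-90213678 (Rps27, minus), chr2:180257349-180257398 (Rps21, plus) and chr10:128549149-128549198 (Rpl41, minus). The paralogs lie at chr16:10170198-10170247 (Rpl39l, plus), chr17:24727796-24727845 (Rpl3l, plus, the most upstream of its windows) and chr12:66284382-66284431 (Rpl10l, minus).

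The pyrimidine run measured 18 bases in Rpl35, 13 in Rpl35a, 11 in Rpl28, 10 in Rpl18 and Rps15a, and 9 in Rpl5, Rps26 and Rps27. It was 5 bases in Rpl3l and Rpl10l, whereas Rpl39l had 9 bases that began 26 bases before the start. The runs of Rpl5 and Rps15a also lay before the RefSeq start, beginning 20 and 15 bases upstream of it. Those of Rpl35, Rpl35a, Rpl28, Rpl18, Rps26 and Rps27 began between 7 bases before and 3 bases after it. Rpl41, one of the most abundant members, had no run longer than 4 bases in the stretch around its RefSeq start. For Rpl41 and Rps15a the deposited gene begins upstream of the printed stretch, so a run at another start can be missed. For Rps27 the deposited gene begins downstream of the whole printed stretch, so the run shown lies outside that gene. Over the 100 bases centred on the start, the median longest run of C and T was 10 bases in the 75 windows of members (quartiles 8.5 and 13) and 7 in all 32851 windows (quartiles 5 and 9). The median longest run of A and G was 6 and 7 bases. CTCTTTC occurred in 20% of member windows and 3.99% of all windows as transcribed, and in 8.0% and 4.32% on the opposite strand. CCGGAAG, the core letters bound by ETS-family factors, occurred in 24.0% and 4.77% as transcribed, and in 13.3% and 4.79% on the opposite strand. CTCTTTC can overlap CCGGAAG, on either strand, by at most 1 base, while CCGGAAG can overlap its own opposite-strand form by 4 bases. A match is a description of these letters only.

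Several libraries stood apart and bear on everything that follows. Depth was similar, from 15705196 to 20311766 reads on genes. Hnf4a did not follow its labels (98.8 to 158 FPKM in KO, 75.8 to 133 FPKM in WT apart from WT chow 3 at 0.0973 FPKM), so KO and WT below mean the libraries so labelled. WT chow 3 did not carry the transcripts of liver: 6 hepatocyte markers summed to 30.1 FPKM there and to 20038 to 62683 FPKM elsewhere, and 5 brown fat markers to 12921 FPKM against 5.64 to 120.5 FPKM. WT chow 2 had the lowest hepatocyte sum of the other 11 libraries. All 3 KO HFD libraries held transcripts of 6 exocrine pancreas markers, which summed to 39.3 to 66.6 FPKM against 0 to 5.03 FPKM elsewhere, none of the 6 being absent from the whole table. Their 8 heart muscle markers summed to 1.87 to 2.98 FPKM, against 7.24 to 41.5 FPKM elsewhere. In bulk tissue, fewer cells of a type and less RNA per cell cannot be told apart.

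Ribosomal protein transcripts were among the most abundant of the table. Together the 84 genes took 2.58% to 10.5% of all FPKM and 1.33% to 6.10% of all reads on genes. The summed level was 27149, 70732 and 15464 FPKM in WT chow 1 to 3. It was 30944, 25350 and 23807 FPKM in WT HFD 1 to 3, and 21533, 19742 and 28535 FPKM in KO chow 1 to 3. In KO HFD 1 to 3 it was 67055, 31477 and 36085 FPKM. WT chow 2 and KO HFD 1 were far above the rest, WT chow 3 was the lowest, and the other 9 libraries lay between 19742 and 36085 FPKM.

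**Figure D1:**
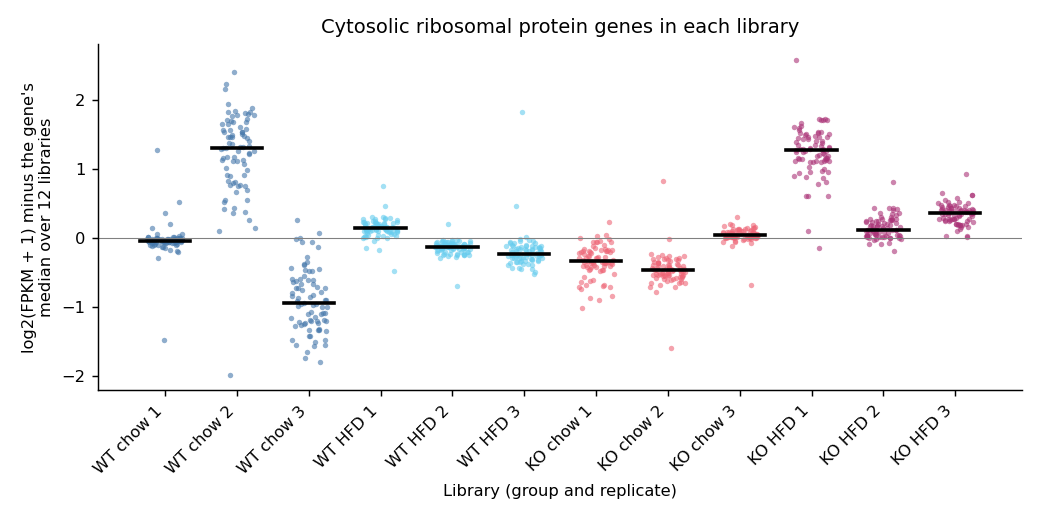
Level of the 80 members with a mean of at least 10 FPKM in each of the 12 libraries, as log2(FPKM + 1) minus the gene's own median over the libraries. Points are genes, black bars the median over genes and colours the 4 groups. The bars stand at 1.31 in WT chow 2 and 1.28 in KO HFD 1, at −0.94 in WT chow 3, and between −0.46 and 0.37 in the other 9 libraries.

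The members moved as a block between libraries. Taken as log2(FPKM + 1) minus each gene's own median over the 12 libraries, the median over 80 members (those with a mean of at least 10 FPKM) was −0.04, 1.31 and −0.94 in WT chow 1 to 3 and 0.15, −0.12 and −0.23 in WT HFD 1 to 3. It was −0.33, −0.46 and 0.05 in KO chow 1 to 3 and 1.28, 0.12 and 0.37 in KO HFD 1 to 3. The plot of members by library shows the spread of single genes around these values. Within WT chow and within KO HFD, libraries of 1 group differed by more than any 2 of the 9 intermediate libraries did. A member's level spanned a median of 2.41 log2 units over the libraries. Once the shift shared by the members was subtracted, the median span was 0.74, and 78 of the 80 spans were narrower.

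In WT chow 2, 75 of the 80 members (93.75%) exceeded all 9 intermediate libraries, as did 35.3% of the other tested genes. The median member stood at 2.53 times its median over the 9. In KO HFD 1 this held for 78 members (97.5%, against 31.0% of the other genes) with a median of 2.49 times. In WT chow 3, 61 members (76.25%) lay below all 9, as did 38.9% of the other genes, and the median member stood at 0.541 times. Because the 9 libraries were set apart by the members' own level, the members' shares follow in part from that choice. By summed FPKM the subunits were not raised alike in the high libraries. Summed small-subunit FPKM was 0.751 of the large-subunit sum in WT chow 2, with the stalk and the paralogs assigned to their subunits. The ratio was 0.818 in KO HFD 1, and it lay between 0.896 and 0.928 for the 10 remaining libraries. Sums are weighted to the most abundant genes. By the median gene, in log2 units above its own median, WT chow 2 had 1.22 for the small and 1.46 for the large subunit. In KO HFD 1 these medians lay closer together, at 1.25 and 1.31.

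Among the small-subunit proteins, Rps27 (chromosome 3, 90212725 to 90213615, minus strand), a zinc-finger protein, had the highest mean level of all members. It stood at 1476, 2806 and 618 FPKM in WT chow, 1754, 1347 and 1091 FPKM in WT HFD, 766, 828 and 1369 FPKM in KO chow, and 3061, 1698 and 2038 FPKM in KO HFD. All 3 KO HFD values were above all 3 KO chow values, whereas KO HFD and WT HFD overlapped. Rps2, at the mRNA entry side of the small subunit, and Rps14, near the platform, averaged 1099 and 956 FPKM. The lowest library of Rps2 was 370 FPKM (WT chow 3) and its highest 1974 FPKM (WT chow 2), and the 3 KO HFD values (1605, 991 and 1206 FPKM) overlapped those of KO chow (1045, 828 and 1050 FPKM). Rps26 had one of the widest spans, from 201.1 FPKM in WT chow 3 to 2024 FPKM in WT chow 2. Rps25, needed for translation from some internal ribosome entry sites, had one of the narrowest, from 285 to 771 FPKM. Rpsa, which doubles as the laminin receptor precursor, ranged from 194 FPKM in WT chow 3 to 688 FPKM in WT chow 2, with 680 FPKM in KO HFD 1 and 223 to 384 FPKM in the 9 others.

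Rps12 and Rps19 kept their level in WT chow 3 better than most members. Rps19 is a protein required for maturation of the small subunit and mutated in Diamond-Blackfan anaemia. Its level was 102.8 FPKM in WT chow 3 against 53.8 to 102.2 FPKM in the 9 intermediate libraries. Of the 80 members with a mean of at least 10 FPKM, only Rps19 was above all of them there. Rpl39l, below that mean and described further on, was above them too. Rps19 was the one of these 2 that was expressed in every library. It reached 316 FPKM in WT chow 2 and 228 FPKM in KO HFD 1. Rps12 was at 579 FPKM in WT chow 3, inside the range of the 9 (395 to 695 FPKM), and at 982 and 1432 FPKM in the 2 high libraries.

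Of the large-subunit proteins outside the stalk, Rpl36 had the highest mean, 1237 FPKM, with 966, 3563 and 612 FPKM in WT chow, 1119, 854 and 691 FPKM in WT HFD, 555, 581 and 890 FPKM in KO chow, and 2649, 1085 and 1275 FPKM in KO HFD. The KO HFD values were again above all KO chow values, and WT chow overlapped all 3 other groups. Rpl36a (chromosome X, 134585654 to 134588062), another large-subunit protein despite its similar name, spanned the most among abundant members, from 69.0 FPKM in WT chow 3 to 857 FPKM in WT chow 2. Rpl35a and Rpl22 were among the flattest. Rpl35a ranged from 71.9 to 218 FPKM and Rpl22, an RNA-binding protein of the outer surface, from 37.1 to 110.1 FPKM. In WT chow 2 they stood at 1.13 and 1.09 times their median over the 9 intermediate libraries, whereas Rpl35, at the exit of the peptide tunnel, stood at 4.93 times. Rpl35 and Rpl23a, its neighbour there, had the lowest mean levels among the non-paralogous tested members, 29.9 and 28.1 FPKM.

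The acidic stalk recruits the elongation factors. Its base protein Rplp0 stood at 363, 1330 and 185 FPKM in WT chow, 373, 322 and 332 FPKM in WT HFD, 379, 307 and 374 FPKM in KO chow, and 976, 367 and 487 FPKM in KO HFD. KO HFD overlapped KO chow for Rplp0. Its partners Rplp1 (mean 1272 FPKM, range 612 to 3029) and Rplp2 (mean 350 FPKM, range 205 to 864) were higher in all 3 KO HFD libraries than in any KO chow library. For Rplp2 these were 632, 339 and 352 FPKM against 209, 205 and 303 FPKM.

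FPKM divides by a gene length, and the deposited lengths made some members look scarcer than others. Over 76 members with a first-listed transcript in the annotation, the 90th percentile of mean FPKM was 7.65 times the 10th. Per length of that transcript the factor was 4.86. Rps15a has a deposited length of 5130 bases against 640 for that transcript, and 11 members have one over 2 times longer. Differences between libraries within a gene are not touched by this division, but levels between genes are.

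Among the paralogs, 3 were nearly silent in liver and 4 were expressed. Rpl10l, a retrogene copy used in male germ cells, had 0 reads in every library, a count that allows up to 3 reads in each (counting error only), while Rpl10 stood at 179 to 1308 FPKM. Rpl3l, which replaces Rpl3 in skeletal and heart muscle, had 3 to 31 reads per library. Its highest value was 1.29 FPKM in WT HFD 2, the library with the highest sum of skeletal muscle markers (101.8 FPKM). Rpl3 itself lay between 72.4 and 472 FPKM.

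Rpl39l (chromosome 16, 10170226 to 10174911, plus strand), a paralog of Rpl39 that is prominent in testis, had 216 reads (16.3 FPKM) in WT chow 3 and 0 to 3 reads in the other 11 libraries. Rpl39 stood at 135 FPKM in WT chow 3, its lowest library, and at 149.7 to 794 FPKM elsewhere. All 4 testis markers examined (Prm1, Prm2, Tnp1 and Ldhc) were at 0 in all libraries. The single library with Rpl39l was therefore the one with brown fat transcripts and without hepatocyte transcripts. What part these had in the reads was not tested.

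Rps27l and Rpl22l1 were the paralogs closest in level to their partners. Rps27l, known as a p53 target, ranged from 216 to 545 FPKM and stood at 0.178 to 0.349 of Rps27. Its values in the 9 intermediate libraries were 412 FPKM in WT chow 1, 317, 294 and 248 FPKM in WT HFD, 266, 248 and 406 FPKM in KO chow, and 457 and 399 FPKM in KO HFD 2 and 3. It ranged less than Rps27, and the paralog's share was lowest in KO HFD 1. By reads Rpl22 was above Rpl22l1 in every library. By FPKM, which depends on the deposited gene lengths, Rpl22l1 exceeded Rpl22 in 11 of 12 libraries. The ratio was 0.927 in WT chow 1, 1.86 in WT chow 2, 1.67 in WT chow 3 and 2.09 in KO HFD 1, and 1.05 to 1.36 in the 8 others. The 3 libraries that stood apart in the members' level therefore also had the highest ratios of Rpl22l1 to Rpl22.

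Rpl7l1, thought to act in ribosome assembly rather than as a standing component, was the steadiest member. It stood at 31.0, 38.5 and 23.1 FPKM in WT chow, 29.0, 29.4 and 32.3 FPKM in WT HFD, 38.0, 27.3 and 32.1 FPKM in KO chow, and 34.5, 32.0 and 32.5 FPKM in KO HFD. Its span of 0.71 log2 units was the narrowest of all tested members, and all 4 groups overlapped. Because Rpl7 followed the block, from 98.4 FPKM in WT chow 3 to 523 FPKM in KO HFD 1, the ratio of Rpl7l1 to Rpl7 ran from 0.0661 in KO HFD 1 to 0.235 in WT chow 3.

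**Figure D2:**
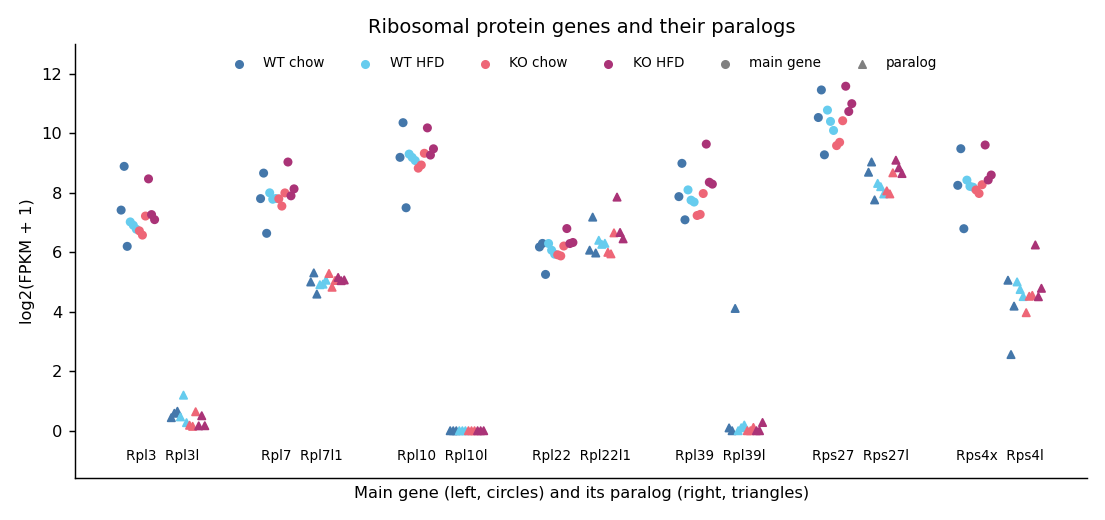
Levels of 7 ribosomal protein genes (circles) and their paralogs (triangles) as log2(FPKM + 1), 1 symbol per library and coloured by group. Rpl10l has no reads and Rpl3l few, Rpl39l rises above 3 reads in a single WT chow library, and Rpl22l1 and Rpl22 lie at like levels.

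Rps4l (chromosome 6, 148354656 to 148355598, plus strand), an autosomal copy of the X-linked Rps4x, departed from the block in WT chow 2. It stood at 32.3, 4.90 and 17.2 FPKM in WT chow, 31.0, 25.8 and 21.8 FPKM in WT HFD, 14.6, 21.9 and 22.4 FPKM in KO chow, and 74.8, 21.7 and 26.6 FPKM in KO HFD. WT chow 2 was thus its lowest library, at 0.218 times its median over the 9 intermediate libraries, whereas in KO HFD 1 (3.34 times) and WT chow 3 (0.769 times) it moved with the block. In WT chow 2 Rps4x was at 713 FPKM, its second highest value. The Y-linked Eif2s3y and Ddx3y were also lowest in WT chow 2, at 0.937 and 0.427 FPKM, against 14.5 to 20.8 and 7.01 to 17.6 FPKM elsewhere, and Xist was at 0.0717 FPKM. Rps4l lies within Tmtc1 on the opposite strand, and the sources used here do not say whether the counting used strand.

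Rpl29, a peripheral large-subunit protein, fell into high and low libraries that cut across the groups. It stood at 213, 465 and 72.0 FPKM in WT chow, 62.3, 53.6 and 313 FPKM in WT HFD, 53.0, 155.6 and 53.9 FPKM in KO chow, and 527, 76.2 and 99.6 FPKM in KO HFD. The low values appeared in at least 1 library of each group, and all groups overlapped. As a share of the members' reads, which removes the shift of the block, Rpl29 ran from 0.156% in KO chow 3 to 1.08% in WT HFD 3. The position is chromosome 9, 106429454 to 106431568, plus strand.

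Rps3a1, a protein of the small-subunit platform, shared its reads unevenly with the pseudogene row Rps3a3. Rps3a1 (chromosome 3, 86137940 to 86142702, minus strand) had 1401, 5166 and 1309 reads in WT chow, 6884, 3161 and 5168 in WT HFD, 2844, 1414 and 3675 in KO chow, and 3494, 7190 and 7162 in KO HFD. Rps3a3 had 2743, 3943 and 471 reads in WT chow, 20, 1228 and 12 in WT HFD, 840, 2135 and 1422 in KO chow, and 7312, 20 and 16 in KO HFD. In WT HFD 1 and 3 and KO HFD 2 and 3 the pseudogene row was nearly empty, and in WT chow 1, KO chow 2 and KO HFD 1 it held most of the reads of the pair.

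Rps3a3 therefore took 0.223% to 67.7% of the reads of the pair. Rps3a1 alone made up 0.319% to 1.38% of the members' reads, and the pair together 0.792% to 1.39%, a narrower range. A difference in Rps3a1 alone is uncertain, since reads of near-identical copies could be assigned to either. Over all 251 rows named as ribosomal protein pseudogenes, reads came to 0.789% to 1.49% of those of the members. That count leaves out copies under other names and reads not assigned to any row. The extent of such sharing over the whole set is therefore not known. Rpl24 was listed at 0 to 0.815 FPKM and was not tested. Its row overlaps another row (Gm28037), which is listed at 0, so its level here is uncertain.

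**Figure D3:**
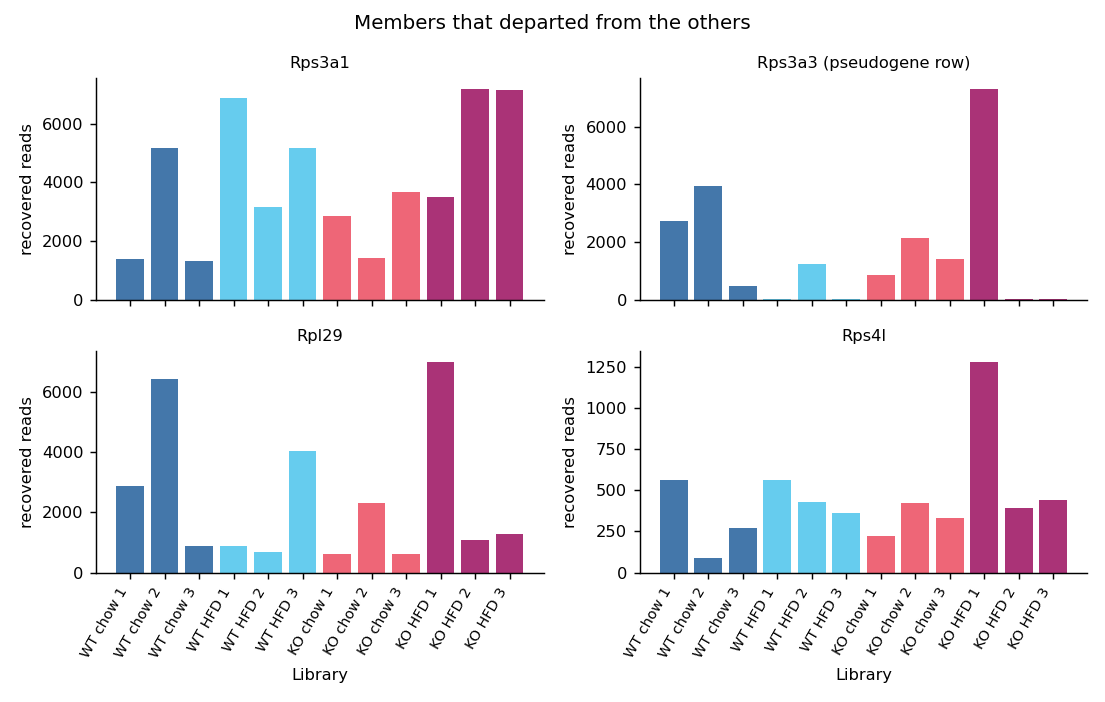
Recovered reads of Rps3a1, the pseudogene row Rps3a3, Rpl29 and Rps4l in each of the 12 libraries, as bars coloured by group. Rps3a3 is nearly empty in 4 HFD libraries, Rpl29 is low in 7 libraries from all 4 groups, and Rps4l is lowest in WT chow 2, at 87 reads.

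The comparisons between groups were read from 1 limma fit of log2(FPKM + 1) over the 12 libraries, with Benjamini-Hochberg adjustment over 12251 genes of at least 0.5 FPKM on average. Of the 84 members 81 were tested, all but Rpl3l, Rpl10l and Rpl24. No member passed 0.05 in any of the 5 comparisons. Among all tested genes 0.0% were called higher or lower for KO chow against WT chow and for WT HFD against WT chow, 0.155% higher for KO HFD against WT HFD and for KO HFD against KO chow, and 0.122% higher for the interaction, with 0.0% lower in each. The members with an unadjusted p under 0.05 numbered 0 for KO chow against WT chow (21.1% of all tested genes), 0 for WT HFD against WT chow (14.7%) and 0 for KO HFD against WT HFD (1.27%). They numbered 3 for KO HFD against KO chow (7.54% of all tested genes) and 2 for the interaction (16.6%). With limma-voom on recovered reads, chosen after seeing the data, 0 members passed in each comparison.

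For diet within the libraries labelled KO, every tested member was on average higher on HFD. The median log2 difference KO HFD minus KO chow over the 81 was 0.82, with a range from 0.04 to 1.28, while the median of all tested genes was −0.06. In 50 of the 81 members (61.7%) all 3 KO HFD libraries were above all 3 KO chow libraries, against 9.98% of all tested genes. In 0 members was the order the reverse, against 21.6% of all tested genes. The highest differences were those of Rpl37 (1.28, SE 0.60, limma adjusted p = 0.649), Rpl39 (1.27, SE 0.54, limma adjusted p = 0.649) and Rps29 (1.22, SE 0.67, limma adjusted p = 0.656). The lowest were Rpl7l1 (0.04, SE 0.23), Rpl39l (0.06, SE 0.85) and Rps2 (0.36, SE 0.60). Rpl37 is a zinc-binding and Rpl39 a small basic protein of the large subunit, and for both the groups did not overlap: Rpl37 was at 205, 208 and 323 FPKM in KO chow and 1044, 417 and 460 FPKM in KO HFD.

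The SE in this fit is set in part by WT chow 2 and 3, although neither is in this comparison. They held the highest and the lowest median shift of the members, 1.31 and −0.94. Leaving them out therefore lowers the members' SE in part by that choice, in the other comparisons too. The median SE over the members was 0.57 with them and 0.29 without them. Without these 2 libraries (10 libraries, chosen after seeing the data), 4 members rose in KO HFD against KO chow and 0 fell, while 1.52% of all tested genes were called higher and 6.24% lower. An unadjusted p under 0.05 was reached by 67 of the 81 members and by 29.2% of all tested genes. The 4 were Rps27 (log2 difference 1.202, SE 0.31, limma adjusted p = 0.0490), Rps21, a small protein of the small subunit (1.18, SE 0.28, limma adjusted p = 0.0432), Rps15a, of the small-subunit body (1.14, SE 0.28, limma adjusted p = 0.0437), and Rpl41, a very short basic peptide (1.13, SE 0.28, limma adjusted p = 0.0449). Their start sites are among those printed above, with pyrimidine runs of 9, 7, 10 and 4 bases. Those of Rps15a and Rpl41 began 15 and 28 bases before the RefSeq start. With array weights, which let limma give less weight to libraries that fit poorly, 18 members rose and 0 fell, these 4 among them, while 4.83% of all tested genes were called higher and 14.9% lower.

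These differences lay in the upper part of the members' range. Rps21 (chromosome 2, 180257377 to 180258445, plus strand) stood at 305, 378 and 544 FPKM in KO chow and at 1301, 736 and 758 FPKM in KO HFD. Rps15a (chromosome 7, 118104378 to 118116186, minus strand) stood at 22.3, 19.9 and 28.9 FPKM in KO chow and at 87.5, 38.3 and 43.9 FPKM in KO HFD. Rpl41 (chromosome 10, 128548114 to 128549305, minus strand) stood at 439, 440 and 705 FPKM in KO chow and at 1675, 918 and 939.5 FPKM in KO HFD. In each gene KO HFD 1 was the highest library of the 6, and the groups did not overlap.

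KO HFD 1 carried part of the size. Without it as well (9 libraries, chosen after seeing the data), 0 members passed for KO HFD against KO chow by limma, 41 had an unadjusted p under 0.05 (28.2% of all tested genes), and the smallest adjusted p was 0.0638. Among all tested genes 0.196% were called higher and 0.122% lower in that fit. The median log2 difference over the members was 0.49 with all 81 above 0, against 0.82 with KO HFD 1 in the fit. In 51 members (63.0%) both remaining KO HFD libraries were above the 3 KO chow libraries, as in 11.7% of all tested genes, and in 0 members was the order the reverse, against 32.9%. Rps27 stood at 0.96 (SE 0.31, limma adjusted p = 0.0947) and Rps21 at 0.91 (SE 0.25, limma adjusted p = 0.0755). Rps3a1 stood highest at 1.45 (SE 0.48, limma adjusted p = 0.103), with the reservation about Rps3a3 above. Rpl23a (0.12, SE 0.18), Rpl39l (0.10, SE 0.12) and Rpl7l1 (0.00, SE 0.15) were the lowest.

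**Figure D4:**
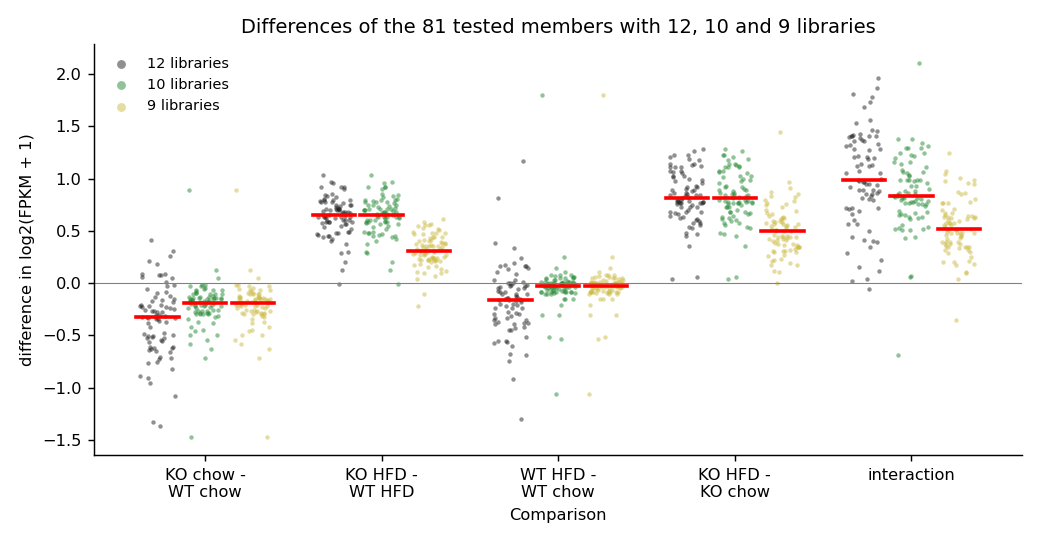
Difference in log2(FPKM + 1) of the 81 tested members in 5 comparisons, from fits with 12, 10 (without WT chow 2 and 3) and 9 libraries (also without KO HFD 1). Points are genes and red bars medians. For KO HFD minus KO chow the medians are 0.82, 0.82 and 0.49, and for KO HFD minus WT HFD 0.65, 0.65 and 0.31.

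Other short transcripts moved in the same direction. Protein-coding genes outside the set (mean of at least 5 FPKM) were divided by deposited length. For KO HFD minus KO chow their median log2 difference was 0.73 in 152 genes of up to 700 bases, 0.54 in 321 genes of 700 to 1000 bases and −0.41 in 1216 genes above 4000 bases. Members in the first 2 classes stood at 1.02 (23 genes) and 0.84 (24 genes). With 9 libraries the first 2 classes stood at 0.57 and 0.43, and the members in them at 0.62 and 0.45, close to the other short genes. Members with a longer deposited length, from 1500 to 2500 bases, stood at 0.34 (11 genes) where the other genes stood at 0.01. Those of 2500 to 4000 bases stood at 0.50 (7 genes) where the other genes stood at −0.17. With 12 libraries the members in these classes stood at 0.77 and 0.76, and the other genes at 0.07 and −0.13. Some of these longer members have a first-listed transcript far shorter than the deposited length. The exocrine pancreas sum also separated these groups, at 39.3 to 66.6 FPKM in KO HFD and 0.357 to 0.736 FPKM in KO chow. The part of transcript length and of pancreatic RNA in the members' difference was not tested.

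A dependence on length was also seen within some libraries. Genes of up to 700 bases outside the set stood at a median of 1.02 above their own median in WT chow 2 and 0.58 in KO HFD 1, and those above 4000 bases at −0.52 and −0.12. In KO chow 1 and 2 the slope was the reverse, −0.51 and −0.46 for the shortest and 0.29 and 0.29 for the longest. WT HFD 1 was nearly flat, at −0.05 and 0.02. WT chow 3 had no steady slope, at −0.30 for the shortest, −0.66 from 1000 to 1500 bases and −0.06 for the longest. Members of up to 700 bases stood at 1.38 in WT chow 2 and at 1.31 in KO HFD 1. In KO HFD 1 the members were further above the short genes than in WT chow 2.

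**Figure D5:**
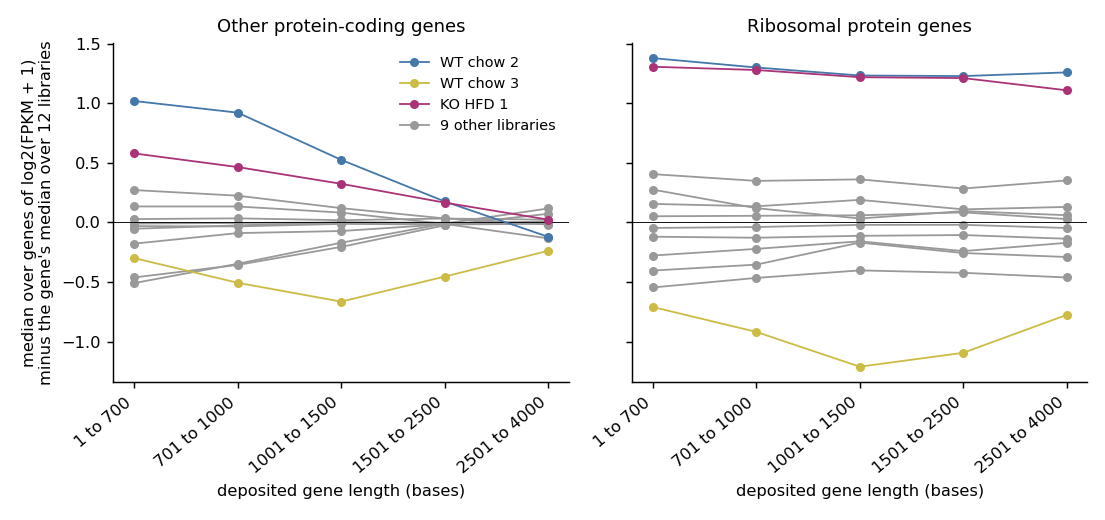
Median level by class of deposited gene length, as log2(FPKM + 1) minus each gene's median over 12 libraries, for other protein-coding genes (left) and ribosomal protein genes (right). Lines are libraries, with WT chow 2, WT chow 3 and KO HFD 1 in colour. The line of WT chow 2 falls from 1.02 in the shortest class of other genes, while that of the members stays between 1.23 and 1.38. The class above 4000 bases, with 1 member, is not drawn.

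Between the genotype labels on HFD, 80 of the 81 tested members were on average higher in KO HFD than in WT HFD, with a median log2 difference of 0.65 and a range from 0.00 to 1.03, against −0.03 over all tested genes. The groups did not overlap, with KO HFD the higher, in 31 members (38.3%), against 7.37% of all tested genes. In 0 members was WT HFD the higher without overlap, against 12.4%. The highest were Rpl37 (1.03, SE 0.60), Rpl36a (0.96, SE 0.77) and Rpl38 (0.96, SE 0.58), a protein tied in mice to translation of Hox mRNAs, each with a limma adjusted p of 1. Rpl38 was at 516, 430 and 354 FPKM in WT HFD and at 1444, 666 and 600.5 FPKM in KO HFD. With 10 libraries 38 members had an unadjusted p under 0.05 (12.5% of all tested genes) and 0 passed by limma (smallest adjusted p = 0.369), while 0.18% of all tested genes were called higher and 0.0% lower.

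Without KO HFD 1 as well, the median fell to 0.31 with 79 members above 0. Rpl37 then stood at 0.61 (SE 0.23) and Rps27l at 0.58 (SE 0.23), both with a limma adjusted p of 0.497. Other protein-coding genes of up to 700 bases stood at 0.33 in that comparison and the members of that length at 0.41. From 1500 to 2500 bases the other genes stood at 0.02 and the members at 0.28. From 2500 to 4000 bases they stood at −0.09 and 0.30. With 12 libraries the values for up to 700 bases were 0.45 in the other genes and 0.75 in the members. The part of transcript length in this difference was not tested.

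On chow the values were opposite in sign but rested on single libraries. The median log2 difference KO chow minus WT chow was −0.32, with 12 of 81 members above 0, against 0.08 over all tested genes, and in 0 members did the groups not overlap (12.4% of all tested genes were higher and 4.43% lower without overlap). It was 0.20 without WT chow 2 and −0.85 without WT chow 3. The lowest were Rpl39l (−1.36, SE 0.85, limma adjusted p = 0.349), whose reads came from WT chow 3, Rpl29 (−1.32, SE 0.95, limma adjusted p = 0.409) and Rps19 (−1.08, SE 0.52, limma adjusted p = 0.256). The highest were Rps4l (0.41, SE 0.60), Rpl4, which lines the peptide tunnel (0.31, SE 0.55) and Rps3a1 (0.26, SE 0.62). With 10 libraries, which leaves WT chow 1 alone in its group and assumes that it varies like the others, the median was −0.19.

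Diet within WT gave a median of −0.16, with 19 of 81 members above 0, against 0.02 over all tested genes. Members without overlap numbered 0 in either direction, against 6.82% of all tested genes higher and 4.35% lower. The median was 0.40 without WT chow 2 and −0.70 without WT chow 3, and −0.03 with 10 libraries. The highest were Rps3a1 (1.17, SE 0.62, limma adjusted p = 0.386), Rps4l (0.82, SE 0.60) and Rpl4 (0.38, SE 0.55), and the lowest Rpl39l (−1.30, SE 0.85), Rpl29 (−0.92, SE 0.95) and Rps19 (−0.75, SE 0.52).

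The difference between the diet changes, KO minus WT, had a median of 0.98 over the members, with 80 of 81 above 0, against −0.10 over all tested genes. The highest were Rpl29 (1.96, SE 1.35, limma adjusted p = 0.427), Rpl38 (1.87, SE 0.81, limma adjusted p = 0.294) and Rps19 (1.81, SE 0.73, limma adjusted p = 0.292). The lowest were Rps3a1 (−0.06, SE 0.87), Rps4l (0.02, SE 0.85) and Rpl7l1 (0.04, SE 0.33). With 9 libraries the median was 0.52, and the highest were Rpl29 (1.25), Rps27 (1.07) and Rps27l (1.04). That fit leaves WT chow 1 alone in its group, so the diet change within WT rests there on 1 chow library. Without WT chow 1 the interaction passed for Rps19 (2.24, SE 0.67, limma adjusted p = 0.0460), while 5.24% of all tested genes were called higher and 13.2% lower. That fit leaves WT chow to the 2 libraries that stood apart. In the fit of all 12 libraries the diet change was not shown to differ between the genotype labels for any member.

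Other genes of ribosome supply were read beside the members, in the fit of all 12 libraries first. No gene passed by limma in 20 translation factors and other TOP genes, 5 snoRNA host genes, 29 ribosome biogenesis factors, 14 genes of the RNA polymerase I machinery, 14 regulators or 76 mitochondrial ribosomal protein genes. For KO HFD minus KO chow, the median log2 difference was 0.43 in the TOP genes (17 of 20 above 0), 0.58 in the snoRNA hosts (5 of 5), 0.05 in the biogenesis factors (17 of 29), 0.00 in the polymerase I genes (7 of 14), −0.28 in the regulators (4 of 14) and 0.45 in the mitochondrial ribosomal proteins (74 of 76). The median gene lengths also differed, at 930 bases in the members, 1004 in the snoRNA hosts and 1407.5 in the mitochondrial ribosomal proteins. They were 1928.5 bases in the TOP genes, 2171.5 in the polymerase I genes, 2804 in the biogenesis factors and 4788.5 in the regulators. Other protein-coding genes above 4000 bases stood at −0.41 in the same comparison. The part of gene length in the medians of these lists was not tested.

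With 10 libraries, 13 of 76 mitochondrial ribosomal protein genes rose in KO HFD against KO chow and 0 fell by limma, among them Mrps21 (1.01, SE 0.25, adjusted p = 0.0436) and Mrpl33 (0.96, SE 0.22, adjusted p = 0.0399). Among all tested genes 1.52% were called higher and 6.24% lower in this fit. Of the 14 regulators (median gene length 4788.5 bases) 1 rose and 3 fell. Eif4ebp1, a repressor of cap-dependent translation that mTOR inactivates, rose by 0.91 (SE 0.19, limma adjusted p = 0.0358), whereas its relative Eif4ebp2 (−1.44, SE 0.23, limma adjusted p = 0.0277), the mTOR inhibitor Deptor (−0.96, SE 0.17, limma adjusted p = 0.0306) and Larp1 (−0.65, SE 0.15, limma adjusted p = 0.0381) fell. Nop10, of the box H/ACA particles that modify ribosomal RNA, was the 1 biogenesis factor of 29 that rose (0.82, SE 0.21, limma adjusted p = 0.0454). With 9 libraries, 0 genes of these lists passed by limma, and the medians for KO HFD minus KO chow were 0.35 in the mitochondrial ribosomal proteins, 0.13 in the TOP genes and −0.16 in the biogenesis factors.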

How the data were processed

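The authors deposited 1 table of FPKM (fragment numbers divided by gene length and depth), with gene length, type and coordinates per the file headers. The submitters' processing notes name DESeq2 (version 2), HTSeq 0.6.1, STAR, TopHat and CASAVA, and the builds mm10 and GRCm38. The sources used here do not give their roles, the annotation release or the strand setting. FPKM times gene length gave whole multiples of 1 read for 100% of values (tolerance 0.1), so reads could be recovered. No 2 libraries of a group agreed within sampling noise (mean chi-square 36.0 to 1234 per gene).

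Values were tested as log2(FPKM + 1), a scale that understates changes of low genes, with limma 3.58.1 in R 4.3.3 (4 group means, empirical Bayes with trend, mean FPKM of at least 0.5, Benjamini-Hochberg, threshold 0.05), after tests on simulated data. Figures used matplotlib 3.10.9. The members, gene lists and tests were chosen with earlier results of these data known. Named members were the paralogs with their partners, the stalk proteins and Rpsa, the 5 highest and 5 lowest mean levels, the 5 widest and 5 narrowest spans, and per comparison up to 10 each way past the threshold or otherwise the 3 highest and 3 lowest. Rps3a1, Rpl29, Rps12, Rpl24, Rps19 and Rpl36a were otherwise singled out after their values were seen, as were the examples in the text on single libraries. From the other lists, up to 4 members past the threshold were named. Alternatives covered the pseudocount, the filter, TPM, median-of-ratios and quantile scaling, a replicate block, array weights, the libraries fitted and each library left out.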

Additional observations from a re-analysis of the deposited data

How the results depend on the processing

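Of 129 recomputed counts of members past the threshold, 126 stayed at 0, as in the fit reported. For KO HFD against KO chow the count was 18 with array weights, all higher, and 4 with 10 libraries. Leaving out single libraries gave counts from 0 to 1 for the interaction, with 1 member higher without WT chow 1, and 0 for the other comparisons. The cause was not tested. A fit with the replicate number as a block gave 0 members in each of the 5 comparisons. The numbers share only a label: the correlation of deviations between same-numbered libraries ran from −0.50 to 0.13, over 0.1 in 2 of 18 pairs.

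The medians over the members kept their sign under the planned settings, other than leaving out libraries, in all 5 comparisons. For KO HFD minus KO chow they ran from 0.56 to 0.93, and from 0.49 to 1.03 with single libraries left out. For KO HFD minus WT HFD these ranges were 0.37 to 0.68 and 0.31 to 0.89, and for the interaction 0.69 to 1.15 and 0.41 to 1.54. With TPM the median of all tested genes moved to −0.23 for KO HFD minus KO chow and that of the members to 0.62. On chow and within WT the sign turned when WT chow 2 was left out (0.20 and 0.40). Scaling each library to the members' own median, chosen after seeing the data, left 0 members past the threshold in each comparison. Because this scaling removes the shift that the members share, it cannot test that shift. Depth did not limit members above 10 FPKM, but Rpl3l, Rpl10l, Rpl24 and Rpl39l had too few reads in most libraries for a comparison.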

Other observations

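Some ribosomal proteins carry names outside the usual Rpl and Rps series and were not among the 84 genes. Fau, whose product is cleaved into a ubiquitin-like peptide and a small-subunit protein, had 458, 1252 and 155 FPKM in WT chow, then 506, 424 and 354 in WT HFD. In KO chow its level was 344, 297 and 464 FPKM, and in KO HFD 758, 459 and 567 FPKM. It was highest in WT chow 2 and KO HFD 1 and lowest in WT chow 3, as most members were. Gnb2l1 (Rack1), the scaffold protein of the small-subunit head, was at 177 and 171 FPKM in WT chow 2 and KO HFD 1, at 29.6 FPKM in WT chow 3 and between 54.2 and 84.6 FPKM in the other 9 libraries. Rpl36al, a close relative of Rpl36a, was at 453 and 345 FPKM in the high libraries, 53.7 FPKM in WT chow 3, with the 9 between 127 and 263 FPKM.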
